A study of Mus musculus with 58 samples.

Results

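Energy-wasting cycles of creatine and of calcium were followed in mouse brown, beige and white adipocytes through 6 genes, Ckb, Ckmt2, Gatm, Slc6a8, Alpl and Atp2a2, chosen by symbol. Of these, 4 (Ckb, Slc6a8, Alpl and Atp2a2) had 1 row each among the 11603 rows of the deposited mRNA table, and Gatm and Ckmt2 were not analysed here. The series holds 58 samples, of which the 22 mRNA libraries were used and the 36 chromatin samples were not. The mRNA came from C57BL/6J mice of the Ucp1-NuTRAP and Adipoq-NuTRAP lines, in which adipocyte ribosomes carry a GFP tag, so that mRNA bound to them can be pulled down from whole fat with an antibody against GFP. In such lines the Ucp1 or the Adipoq promoter drives the Cre that switches on the tag, and the labels do not say which line gave which library.

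Beige adipocytes came from inguinal white fat and brown adipocytes from interscapular brown fat. Warm beige (3 libraries) and warm brown (5 libraries) adipocytes were taken from mice that had spent 1 week at 4 °C and then 4 weeks at 30 °C. Cold beige (4 libraries) and cold brown (5 libraries) adipocytes were taken after the week at 4 °C. Warm white adipocytes (5 libraries) were taken from the inguinal depot of mice that lived at 30 °C from birth. The labels give neither age nor sex, and do not say which animals gave which library. Warm white differs from the other groups in lifelong housing as well as in the cold week. The line, and so which adipocytes carry the tag, may differ too.

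In the creatine cycle described in thermogenic fat, creatine is phosphorylated by a mitochondrial-associated creatine kinase and phosphocreatine is then hydrolysed, so that ATP is spent with no work done. Gatm starts creatine synthesis, Slc6a8 carries creatine into the cell, Ckb and Ckmt2 are creatine kinases, and Alpl encodes the tissue-nonspecific alkaline phosphatase that can hydrolyse phosphocreatine. In the calcium cycle, the pump SERCA2, encoded by Atp2a2, moves calcium into the endoplasmic reticulum at the cost of ATP while ryanodine and inositol trisphosphate receptors let it out again. Both cycles are known as heat sources beside Ucp1, the uncoupling protein of brown and beige mitochondria.

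Ckb and Alpl stood furthest above white adipocytes in the cold. Their promoter windows are shown because none was available for Slc6a8 or Atp2a2. Each window runs 5′ to 3′ on the minus strand, 250 bases before to 50 bases after a RefSeq start site of GRCm38.p6. The Ckb window is chr12:111672289-111672588, and those of 2 Alpl start sites are chr4:137796335-137796634 and chr4:137766426-137766725. Capitals mark matches to TATAAA, the core of the TATA box, CCAAT (the box of that name), GGGCGG (GC box) and AGGTCA (a nuclear receptor half-site) on either strand.
Ckb: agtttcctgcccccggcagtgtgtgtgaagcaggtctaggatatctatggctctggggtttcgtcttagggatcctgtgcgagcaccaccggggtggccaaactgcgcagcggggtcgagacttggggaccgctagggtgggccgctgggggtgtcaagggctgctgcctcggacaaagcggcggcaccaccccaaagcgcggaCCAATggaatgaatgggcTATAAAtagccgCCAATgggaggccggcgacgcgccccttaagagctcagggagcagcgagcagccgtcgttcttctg
Alpl start 1: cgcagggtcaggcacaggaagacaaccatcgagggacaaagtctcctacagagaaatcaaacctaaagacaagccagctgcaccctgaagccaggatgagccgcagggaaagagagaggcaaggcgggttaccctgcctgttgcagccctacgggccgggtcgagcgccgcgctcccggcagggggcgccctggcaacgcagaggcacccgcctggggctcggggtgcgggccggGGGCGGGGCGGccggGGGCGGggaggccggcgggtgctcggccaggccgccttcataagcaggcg
Alpl start 2: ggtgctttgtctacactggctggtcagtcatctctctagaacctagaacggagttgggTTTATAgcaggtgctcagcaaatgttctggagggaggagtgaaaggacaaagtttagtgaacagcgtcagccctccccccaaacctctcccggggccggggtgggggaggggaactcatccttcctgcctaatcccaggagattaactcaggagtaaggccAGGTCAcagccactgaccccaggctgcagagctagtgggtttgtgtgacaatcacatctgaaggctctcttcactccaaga
The Ckb window, 63.0% G and C, held a TATA box whose first base lay at -28 from the start site and CCAAT boxes at -46 and -16. The first Alpl window, 70.0% G and C, held no TATA box but 3 GC boxes at -15, -10 and 1, the first pair overlapping. The second Alpl window, 54.3% G and C, held the half-site at -31 and a TATA box on the opposite strand at -192. Of 32851 promoter windows of this length, 13.6% held a TATA box, 37.4% a CCAAT box, 35.7% a GC box and 16.3% the half-site. TGACGTCA, the cAMP response element, and TNAAGGTCA, the element of oestrogen-related receptors, which contains the half-site, were in none of these 3 windows and in 1.79% and 1.28% of all. CANNTG, the E-box, which was not put in capitals, was found once in the first and 3 times in the second Alpl window, not in that of Ckb, and in 72.3% of all. A match describes letters only, and which Alpl start was used in these cells was not measured.

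Ucp1 was highest in the cold groups. It averaged 1.03 ± 0.59 log2 CPM in warm beige, 11.34 ± 0.25 in cold beige, 8.84 ± 0.32 in warm brown, 12.15 ± 0.28 in cold brown and -2.82 ± 1.72 in warm white libraries (SD; n = 3, 4, 5, 5 and 5). Adipoq, made by all adipocytes, averaged between 8.56 and 10.11 log2 CPM in the 5 groups and was higher in warm beige than in cold beige by 0.76 ± 0.17 (adjusted p = 0.000331). Of 10 adipocyte markers 4 rose and 3 fell on warming in beige, 2 rose and 5 fell in brown, and 8 were lower in warm beige than in warm white. Of 11 markers of thermogenic adipocytes, 11 fell on warming in beige and 9 in brown. Markers of other cells were present too, and the skeletal muscle marker Tnnt3 was at the floor in all cold brown libraries. In warm beige against cold beige libraries 11 of 13 skeletal muscle, 10 of 14 endothelial and 9 of 11 fibroblast markers rose, and in warm brown against cold brown 2, 5 and 10 of them. Over all rows 36% rose and 36.9% fell on warming in beige, and 41.2% rose and 30.1% fell in brown. Of the muscle markers 1 fell in beige and 2 fell in brown, and none of the endothelial or fibroblast markers was called lower. Of 7 macrophage markers 3 rose in beige and 2 in brown, and none was called lower. Of 10 smooth muscle markers 6 rose and 1 fell in beige, and 2 rose and 1 fell in brown. Of 4 Schwann cell markers 1 rose and 2 fell in beige, and 1 rose and 1 fell in brown. The fibroblast markers summed to 2783 to 5546 CPM in warm beige against 796 to 1149 in cold beige, to 139 to 268 in warm brown against 36.6 to 78.2 in cold brown, and to 4008 to 5225 in warm white. The endothelial markers summed to 652 to 1004 CPM in warm beige against 208 to 452 in cold beige, to 156 to 271 in warm brown against 69.1 to 240 in cold brown, and to 64.5 to 100.5 in warm white. The part of these cells in the values given here was not tested.

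Values are log2 CPM (read counts scaled to library size) as deposited, and differences were tested with limma across all 11603 rows, with Benjamini-Hochberg adjusted p below 0.05 called. A difference below is the first-named group minus the other, on the log2 scale, with its standard error. In these bulk libraries, fewer cells of a type and less RNA per cell cannot be told apart.

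In beige adipocytes all 4 measured genes fell on warming, where 36.9% of all rows fell and 72.9% changed either way. In brown adipocytes 3 of 4 changed, where 71.3% of all rows did: Alpl and Atp2a2 fell, as 30.1% of rows did, and Slc6a8 rose, as 41.2% did. Slc6a8 is the gene that moved in opposite directions in the main fit, and Ckb the one that fell in beige and did not pass the test in brown. The beige fall of Slc6a8 was not called in several alternatives given below. Every value by library is shown in the plot of levels.

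**Figure D1:**
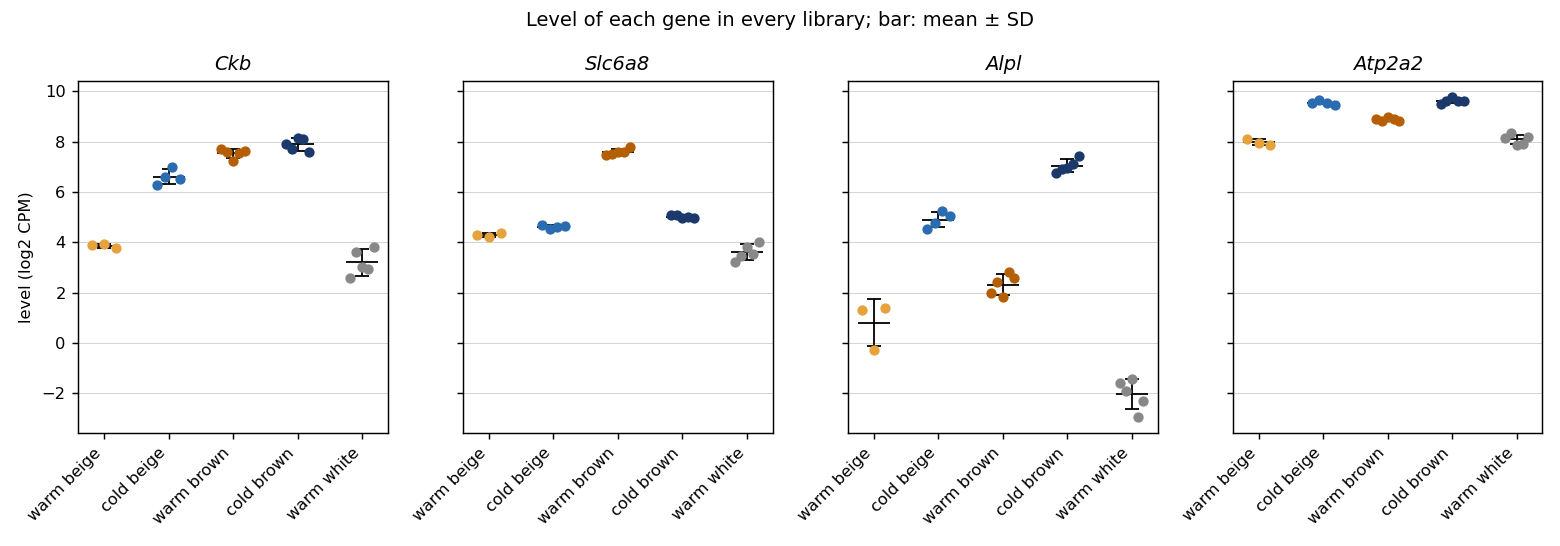
Levels of Ckb, Slc6a8, Alpl and Atp2a2 in each of the 22 libraries (points; vertical axis log2 CPM) by group, with group means. Alpl separates all 5 groups, while Slc6a8 stands alone at 7.46 to 7.78 in warm brown.

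Slc6a8, the creatine transporter (chromosome X, 73673133 to 73682502 on GRCm38), was the gene with the opposite responses. It read 7.46, 7.53, 7.60, 7.61 and 7.78 log2 CPM in the 5 warm brown libraries, against 5.09, 5.08, 4.96, 4.99 and 4.97 in the 5 cold brown libraries. Every warm brown library lay above every other library of the study. In inguinal fat it read 4.29, 4.19 and 4.37 in warm beige, against 4.67, 4.51, 4.59 and 4.65 in cold beige. Warm white libraries held 3.22, 3.47, 3.80, 3.54 and 4.01, below all beige libraries. In geometric means the gene stood at 193.5 CPM in warm brown against 32.4 CPM in cold brown, a rise of 2.58 ± 0.10, or 5.97-fold (adjusted p = 2.92e-15). In beige it fell by 0.32 ± 0.13, or 1.25-fold (adjusted p = 0.0258), with no overlap between the groups. That fall no longer passed without warm beige 1 (adjusted p = 0.0502), warm beige 2 (0.0942), cold beige 1 (0.054) or cold beige 4 (0.0502), nor when the antilogs were set to a common total (0.237) or to totals without the 20 most abundant genes (0.48). The floor values part the libraries into batch 1 (10 libraries) and batch 2 (12 libraries), which the labels do not name. Batch 1 holds 1 warm beige library, and tests on it assume that it varies like the libraries of the other groups. Within batches 1 and 2 the brown rise was 2.41 and 2.69, and the beige change was -0.29 (adjusted p = 0.406, with the lone warm beige library) and -0.31 (0.0254).

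Ckb, the brain-type creatine kinase (chromosome 12, 111669355 to 111672338), was high in brown adipocytes at both temperatures. The gene read 7.72, 7.58, 7.24, 7.54 and 7.65 log2 CPM in warm brown libraries, against 7.93, 7.71, 8.16, 8.09 and 7.58 in cold brown libraries. These groups overlapped, and the difference of -0.35 ± 0.18 did not pass the test (adjusted p = 0.0911). In beige it read 3.90, 3.92 and 3.77 in warm libraries, against 6.28, 6.61, 7.00 and 6.51 in cold libraries, with no overlap. The mean level was 14.6 CPM in warm beige against 97.0 CPM in cold beige, and Ckb fell by 2.74 ± 0.22, or 6.67-fold (adjusted p = 1.88e-10). Warm white libraries held 2.57, 3.63, 3.00, 2.95 and 3.83, a range that reaches into that of warm beige. The brown difference passed with 5 CPM added before the log (adjusted p = 0.0383), after median-of-ratios scaling (0.0277), with only these groups fitted (0.013) and within batch 2 (-0.47, adjusted p = 0.0175), and not within batch 1 (-0.17, 0.711). The beige change was -2.63 within batch 1, with its lone warm beige library, and -2.90 within batch 2.

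Alpl, the phosphatase (chromosome 4, 137741731 to 137796384), spanned the widest range of the 4 genes. It read 1.97, 2.42, 1.81, 2.83 and 2.56 log2 CPM in warm brown libraries, against 6.75, 6.92, 6.96, 7.12 and 7.44 in cold brown libraries. In beige it read 1.32, -0.29 and 1.37 in warm libraries, against 4.54, 4.77, 5.24 and 5.03 in cold libraries. Warm white libraries were the lowest at -1.60, -1.91, -1.44, -2.94 and -2.30, and no group overlapped another. On warming, Alpl fell by 4.09 ± 0.36 in beige, or 17.1-fold (adjusted p = 8.75e-10), and fell by 4.72 ± 0.30 in brown, or 26.4-fold (adjusted p = 4.42e-12). Geometric means were 1.74 CPM in warm beige against 29.8 CPM in cold beige, and 4.99 CPM in warm brown against 131.4 CPM in cold brown, with 0.244 CPM in warm white. The read depth behind the low levels is unknown, and with 5 CPM added before the log the change was -2.33 in beige and -3.76 in brown, both still called. Within batches 1 and 2 the log2 change was -3.42 and -4.49 in beige and -4.64 and -4.77 in brown.

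Atp2a2, the calcium pump SERCA2 that is also the pump of heart muscle (chromosome 5, 122453513 to 122502225), fell in both cell types. It read 8.10, 7.96 and 7.86 log2 CPM in warm beige libraries, against 9.54, 9.65, 9.56 and 9.48 in cold beige. In brown it read 8.90, 8.81, 8.98, 8.89 and 8.83 in warm libraries, against 9.50, 9.63, 9.78, 9.63 and 9.61 in cold libraries. Neither pair overlapped. Atp2a2 fell by 1.58 ± 0.10 in beige, or 3.00-fold (adjusted p = 1.39e-12), and by 0.75 ± 0.08 in brown, or 1.68-fold (adjusted p = 1.83e-08). Warm white libraries held 8.16, 8.34, 7.88, 7.90 and 8.17, overlapping warm beige and below every cold beige and brown library. Within batches 1 and 2 the log2 change was -1.65 and -1.58 in beige and -0.71 and -0.77 in brown.

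Whether beige and brown adipocytes responded alike was tested as the warming effect in beige minus that in brown. This difference passed for 3 of 4 genes, all lower in beige, where 47.2% of all rows passed and 32.4% were lower. It was -2.90 ± 0.16 for Slc6a8 (adjusted p = 7.08e-12), -2.39 ± 0.29 for Ckb (adjusted p = 4.78e-07) and -0.84 ± 0.12 for Atp2a2 (adjusted p = 8.3e-06). For Alpl it was 0.62 ± 0.47 (adjusted p = 0.286), with a 95% interval of -0.36 to 1.61, which reaches past 1 log2 unit. The Alpl value passed at 1.17 without warm beige 2 (adjusted p = 0.0255), the library that read -0.29. It passed at 1.02 with 1 CPM added before the log (adjusted p = 0.00545) and at 1.43 with 5 CPM added (1.76e-06), and did not pass within either batch. The median of all rows was 0.03 for warming in beige, 0.13 for warming in brown and -0.17 for the difference, and each of the 3 called differences was larger in size than that.

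**Figure D2:**
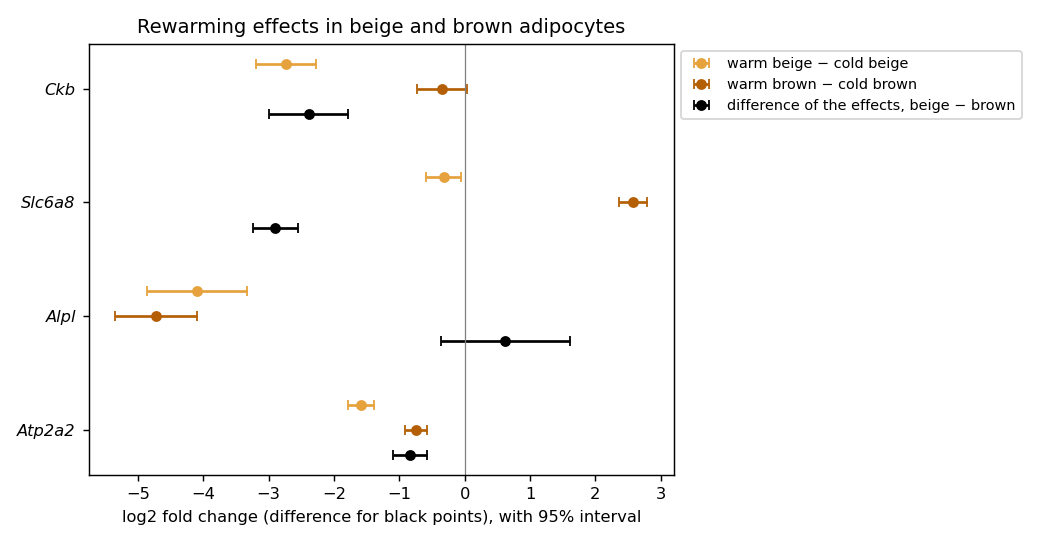
Warming effects (log2 fold change with 95% interval) on the 4 genes in beige (warm beige minus cold beige) and brown (warm brown minus cold brown) adipocytes. Slc6a8 is the gene with opposite signs, at -0.32 in beige and 2.58 in brown. Its beige fall was not called in several alternatives.

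Beige and brown adipocytes were also set side by side at each temperature. In the cold, 3 of 4 genes were lower in beige than in brown, where 27.2% of rows were lower and 61.9% differed. Alpl was 4.42-fold lower in cold beige (-2.14 ± 0.32, adjusted p = 5.11e-06), Ckb 2.45-fold lower (-1.29 ± 0.19, adjusted p = 5.81e-06) and Slc6a8 1.33-fold lower (-0.41 ± 0.11, adjusted p = 0.00264). Atp2a2 did not pass, at 9.56 ± 0.07 in cold beige and 9.63 ± 0.10 in cold brown, with a 95% interval of the difference of -0.25 to 0.10. After warming all 4 were lower in beige than in brown, where 40.1% of rows were lower and 75.5% differed. Ckb was 12.8-fold lower in warm beige (-3.68 ± 0.21, adjusted p = 6.06e-13) and Slc6a8 9.94-fold lower (-3.31 ± 0.12, adjusted p = 4.91e-16). Alpl was 2.86-fold lower (-1.52 ± 0.34, adjusted p = 0.000413) and Atp2a2 1.88-fold lower (-0.91 ± 0.09, adjusted p = 7.33e-09). With 5 CPM added before the log the Alpl difference was -0.54 (adjusted p = 0.0014). The Slc6a8 difference in the cold was -0.42 within batch 1, from 2 libraries a group (adjusted p = 0.169), and -0.42 within batch 2 (0.00411). The Alpl difference after warming was -0.82 within batch 1, from its lone warm beige library (adjusted p = 0.119), and -1.89 within batch 2 (0.00418).

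Warm white adipocytes served as the base line of inguinal fat that had never been cold. Warm beige adipocytes, from the same depot, were above white in 3 of 4 genes, where 17% of rows were higher and 39.4% differed. Alpl was 7.15-fold higher in warm beige (2.84 ± 0.34, adjusted p = 1.19e-06), Slc6a8 1.60-fold (0.68 ± 0.12, adjusted p = 0.000119) and Ckb 1.59-fold (0.67 ± 0.21, adjusted p = 0.0148). The Ckb call was lost without warm beige 2 (adjusted p = 0.0511) and with only these groups fitted (0.0944). Within batch 2 the difference was 0.94 for Ckb (adjusted p = 0.00273) and 0.57 for Slc6a8 (0.00216). The lone warm beige library of batch 1 gave 0.43 for Ckb (adjusted p = 0.489) and 0.80 for Slc6a8 (0.071). In the same comparison 14 of 14 endothelial and 8 of 10 smooth muscle markers were higher in warm beige, with endothelial sums of 652 to 1004 CPM in warm beige against 64.5 to 100.5 in warm white, and their part in these values was not tested. Atp2a2 averaged 7.97 ± 0.12 log2 CPM in warm beige and 8.09 ± 0.20 in warm white, a difference of -0.12 ± 0.09 that did not pass (adjusted p = 0.326).

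All 4 genes stood above warm white in the other groups. In cold beige 38% of rows were higher than in white and 75.2% differed, in warm brown 40.9% and 79%, and in cold brown 40.4% and 85.6%. Alpl was 539.7-fold higher in cold brown (9.08 ± 0.30, adjusted p = 5.09e-18), 20.5-fold in warm brown (4.36 ± 0.30, adjusted p = 6.59e-12) and 122-fold in cold beige (6.93 ± 0.32, adjusted p = 5.72e-15). These folds rest on a white level of 0.244 CPM. With 5 CPM added before the log, the Alpl difference from white shrank to 0.40 in warm beige, 2.73 in cold beige, 0.94 in warm brown and 4.70 in cold brown, and with 1 CPM to 1.17, 4.61, 2.26 and 6.72, all still called. Ckb was 26.0-fold higher in cold brown (4.70 ± 0.18), 20.4-fold in warm brown (4.35 ± 0.18) and 10.6-fold in cold beige (3.40 ± 0.19). Slc6a8 was 15.9-fold higher in warm brown (3.99 ± 0.10), 2.66-fold in cold brown (1.41 ± 0.10) and higher by 1.00 ± 0.11 in cold beige. Atp2a2 was 1.73-fold higher in warm brown (0.79 ± 0.08), 2.91-fold in cold brown (1.54 ± 0.08) and 2.77-fold in cold beige (1.47 ± 0.08).

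**Figure D3:**
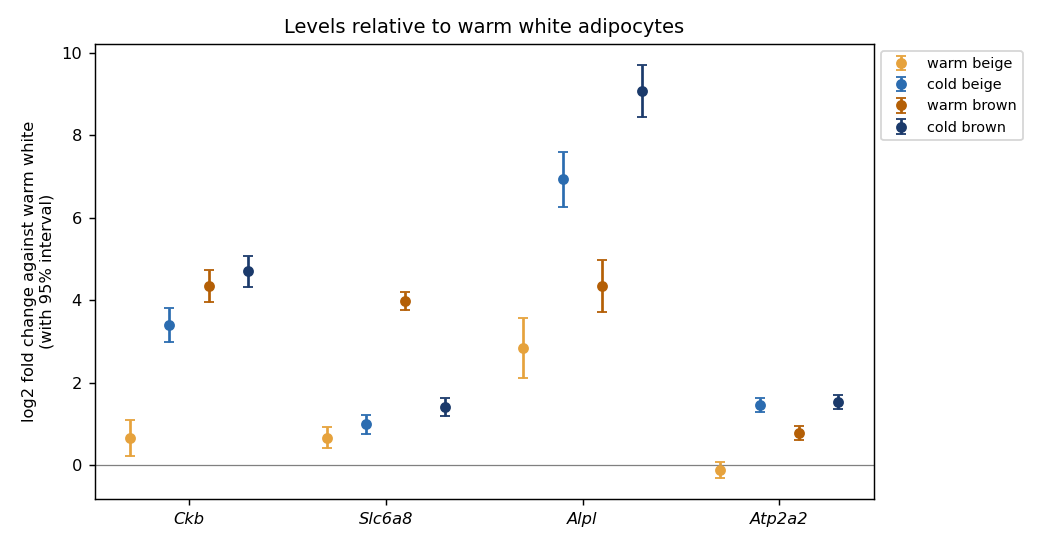
Log2 fold change of each group against warm white (points with 95% interval; grey line, no difference) for the 4 genes. Alpl reaches 9.08 in cold brown, and Atp2a2 in warm beige lies at -0.12 with an interval across 0.

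The share of the cold log2 distance from white that was still present after warming is given as a description. For Ckb it was 19.6% in beige and 92.6% in brown, and for Atp2a2 -7.97% and 51.4%. For Alpl it was 40.9% in beige and 48.0% in brown, and with 5 CPM added before the log 14.5% and 19.9%, so its place among the genes depends on that setting. With 5 CPM added Ckb stood at 15.9% in beige and 91.7% in brown. For Slc6a8 it was 67.7% in beige and 283% in brown, where the warm level lay above the cold one. White adipocytes came from inguinal fat, and no brown group that had never been cold was measured. The brown distances from white therefore mix depot and cell type with cold. The brown shares cannot be read as the part of a cold response that was kept.

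Ordered by level, each gene gave its own sequence of groups. Ckb was highest in cold brown, followed by warm brown, then cold beige and warm beige, and was lowest in white, with warm and cold brown not told apart. Slc6a8 was highest in warm brown, then cold brown, cold beige, warm beige and, lowest, white, each neighbour differing in the main fit. The step between cold and warm beige was not called in several alternatives given above. Alpl ran from cold brown through cold beige, warm brown and warm beige to warm white, and Atp2a2 had the 2 cold groups together on top, warm brown next, and warm white and warm beige not told apart. Of 32 pairs of groups compared for these genes, 28 did not overlap, and over all rows 61.1% of such pairs did not. The 4 that did overlap were Ckb in warm and cold brown, Ckb in warm beige and warm white, Atp2a2 in cold beige and cold brown, and Atp2a2 in warm beige and warm white.

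Genes of creatine handling, with Phospho1 and the ADP/ATP carriers, were counted from a list of 12, of which 7 were measured. The counts and medians include 3 genes already given above, Slc6a8, Ckb and Alpl. On warming, 1 rose and 6 fell in beige, where 36% of all rows rose and 36.9% fell, with a median of -1.50 against 0.03 over all rows. In brown 3 rose, 3 fell and 1 did not pass, where 41.2% of all rows rose and 30.1% fell, with a median of -0.35 against 0.13. Phospho1, a phosphatase that has been put forward beside Alpl in bone mineral formation, fell by 3.34 ± 0.14 in beige (adjusted p = 5.76e-15) and by 0.99 ± 0.12 in brown (1.63e-07). Gamt, which finishes creatine synthesis, was the 1 that rose in beige, by 2.39 ± 0.28 (adjusted p = 8.31e-08), and it rose by 3.04 ± 0.23 in brown (9.7e-11). Its mean level was 12.0 CPM in warm beige and 7.11 in warm brown, against 2.29 in cold beige and 0.867 in cold brown, with 13.3 CPM in warm white. The ADP/ATP carrier Slc25a4 fell by 1.02 ± 0.12 in beige and rose by 0.27 ± 0.10 in brown (adjusted p = 0.0178), a rise that was not called without cold brown 5 (0.0534), within batch 1 (0.291) or after median-of-ratios scaling (0.155). The related carrier Slc25a5 fell by 1.50 ± 0.20 in beige, and its brown difference of -0.41 (adjusted p = 0.0303) was not called without warm brown 3 (0.0767), warm brown 5 (0.0638), cold brown 1 (0.0678) or cold brown 2 (0.0711).

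Calcium pumps and their regulators were counted from a list of 11, of which 7 were measured, Atp2a2 among them. In beige 3 rose, 1 fell and 3 did not pass, a smaller share called than the 72.9% of all rows, with a median of 0.28 against 0.03 over all rows. In brown 5 rose and 2 fell, where 71.3% of all rows were called, with a median of 0.87 against 0.13. The transcript 1810037I17Rik had the largest change of the list in beige, a rise of 2.13 ± 0.19 (adjusted p = 7.99e-10), and it rose by 1.23 ± 0.15 in brown (2.88e-07). Thada rose by 0.31 ± 0.12 in beige (adjusted p = 0.024), a call lost without warm beige 3 (0.144), cold beige 1 (0.0557) or cold beige 2 (0.0728). Atp2a3, the SERCA3 pump, fell by 1.82 ± 0.17 in brown (adjusted p = 4.14e-09) and read 5.05 ± 0.32 log2 CPM in warm beige against 4.77 ± 0.26 in cold beige (adjusted p = 0.232), a beige minus brown difference of 2.11. Atp2a1, the fast-twitch muscle pump SERCA1, rose by 1.50 ± 0.41 in beige (adjusted p = 0.00271), by 0.98 within batch 1 with its lone warm beige library (0.387) and by 1.77 within batch 2 (1.6e-07). Skeletal muscle markers summed to 427, 417 and 65.3 CPM in warm beige 1, 2 and 3, against 21.5 to 65.8 in cold beige. In warm white 2 they summed to 896, against 22.9 to 45.2 in the other warm white libraries. The part of these markers in the Atp2a1 rise was not tested. Tmem38a and Tmem38b, counter-ion channels of the reticulum, rose by 1.50 ± 0.26 and 1.17 ± 0.14 in brown.

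Release channels and their partners were counted from a list of 16, of which 11 were measured. On warming 6 rose, 4 fell and 1 did not pass in beige, and 4 rose, 3 fell and 4 did not pass in brown, with medians of 0.48 against 0.03 over all rows and 0.23 against 0.13. The share called was higher than the 72.9% of all rows in beige and lower than the 71.3% in brown. Ryr2, the ryanodine receptor of heart, fell by 2.94 ± 0.69 in brown (adjusted p = 0.00069) and by 2.28 ± 0.84 in beige (0.0186), the beige call being lost without warm beige 1 (0.102). Its geometric means were low, at 1.16 CPM in warm brown against 8.91 in cold brown, and 1.18 in warm beige against 5.77 in cold beige. Itpr2, an inositol trisphosphate receptor, rose by 1.39 ± 0.14 in brown (adjusted p = 9.55e-09), to 10.00 ± 0.08 log2 CPM in warm brown against 8.61 ± 0.07 in cold brown, and fell by 1.13 ± 0.17 in beige (3.47e-06). Its beige minus brown difference was -2.52 ± 0.22 (adjusted p = 4.61e-09). Ryr1, the skeletal muscle receptor, rose by 4.84 ± 1.30 in beige (adjusted p = 0.00212), and Jph2 and Casq1, also genes of the muscle calcium release machinery, rose by 3.51 ± 1.08 (0.00594) and 3.14 ± 1.14 (0.017), where the muscle markers rose as given above. The Casq1 call was lost without warm beige 1 (0.0652), warm beige 2 (0.0729) or cold beige 1 (0.0545). In cold beige Ryr1, Jph2 and Casq1 stood at geometric means of 0.51, 0.94 and 0.51 CPM. The read depth behind such low levels is unknown. Within batch 1, with its lone warm beige library and 2 libraries in each brown group, neither Ryr1 (0.407), Jph2 (0.527), Casq1 (0.436) nor Ryr2 (0.626) was called in beige, nor Ryr2 in brown (0.16). Fkbp1a, which binds the release channels, and Asph rose by 1.39 ± 0.12 and 0.84 ± 0.07 in brown. In beige Asph averaged 8.77 ± 0.08 log2 CPM (SD) in warm against 6.91 ± 0.05 in cold libraries. Fkbp1a averaged 7.85 ± 0.06 in warm beige against 7.37 ± 0.30 in cold beige. Ryr1 read at the floor of the table in all 5 cold brown libraries.

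Store refilling and mitochondrial uptake were counted from a list of 13, of which 10 were measured. In beige 8 fell and 2 did not pass, where 36.9% of all rows fell, with a median of -0.86 against 0.03 over all rows. In brown 8 fell, 1 rose and 1 did not pass, where 30.1% of all rows fell, with a median of -0.48 against 0.13. Letm1, a mitochondrial ion exchanger, fell by 3.49 ± 0.12 in beige (adjusted p = 1.14e-16) and by 2.44 ± 0.10 in brown (2.84e-15). Mcu, the mitochondrial calcium uniporter, fell by 1.50 ± 0.11 in beige and by 0.68 ± 0.09 in brown. Smdt1, a subunit of that uniporter, fell by 1.30 ± 0.11 in beige and by 0.67 ± 0.09 in brown. Micu3, a regulator of the uniporter, fell by 1.18 ± 0.12 in beige. In brown Micu3 averaged 5.37 ± 0.09 log2 CPM (SD) in warm against 5.10 ± 0.15 in cold libraries. Orai1, the store-operated channel of the cell surface, fell by 1.22 ± 0.13 in brown. It averaged 2.82 ± 0.23 in warm beige against 3.42 ± 0.10 in cold beige. In the difference of warming effects, beige minus brown, 1 of the 10 genes was higher, 6 were lower and 3 did not pass. Over all rows 47.2% passed. The difference was -1.45 ± 0.15 for Micu3, -1.05 ± 0.15 for Letm1 and -0.82 ± 0.14 for Mcu.

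**Figure D4:**
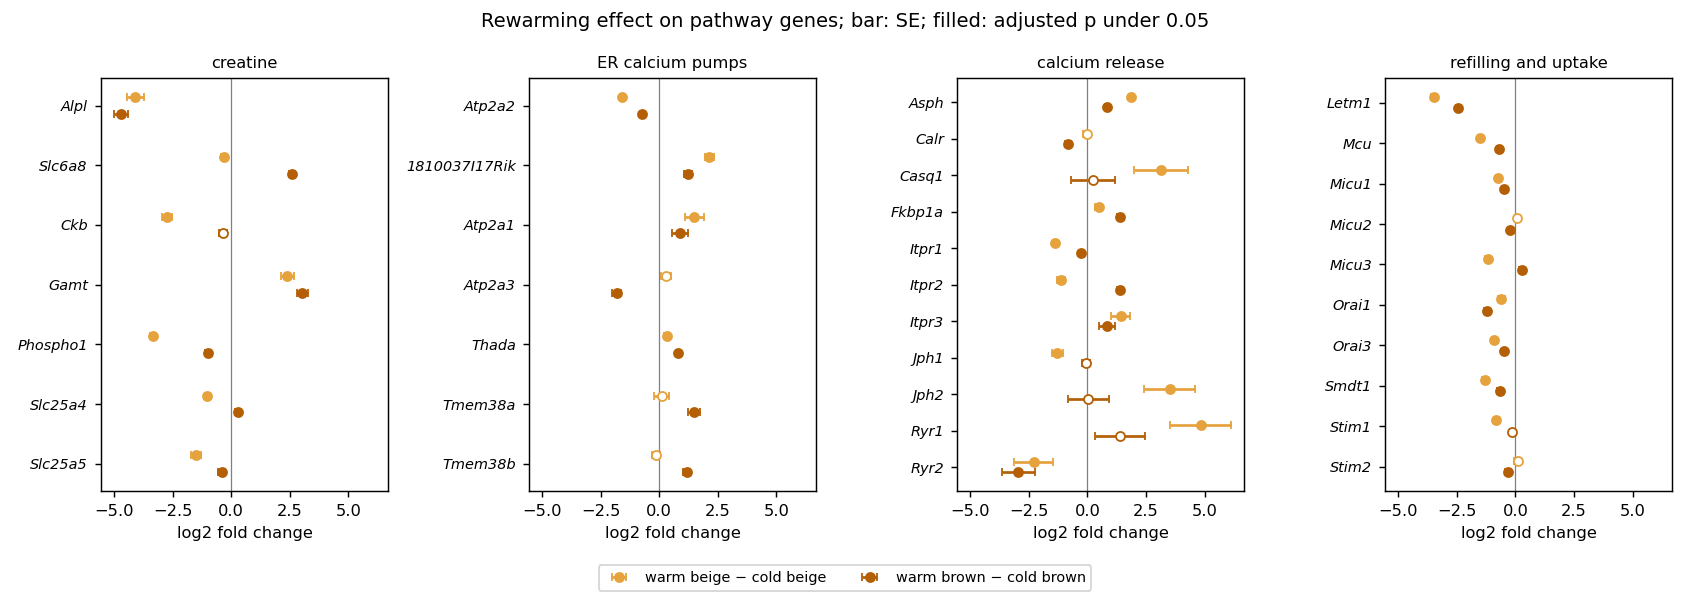
Warming effects (log2 fold change) of the measured genes of the 4 lists, in beige and brown adipocytes. Letm1 fell by 3.49 in beige and fell by 2.44 in brown, and Gamt rose by 2.39 and 3.04.

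For each gene the 3 other rows with the smallest root mean square (RMS) difference over the 22 libraries, each row centred on its own mean, were listed. For Ckb, whose own RMS spread was 1.98 log2 units, these were Pde4a (0.40), Idh3g (0.43) and St6galnac6 (0.43). For Slc6a8 (1.44) they were Zwilch (0.34), Tusc3 (0.38) and Gprc5c (0.44). For Alpl (3.31) the nearest was St3gal5 at 0.84, followed by Cend1 at 1.01 and AK158974 at 1.06. For Atp2a2 (0.69) they were Mlf2 (0.12), Mrpl51 (0.14) and Slc25a46 (0.15).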

How the data were processed

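Ribosome-bound mRNA was measured in 22 libraries. The tools edgeR, featureCounts, HISAT2 and Picard and the build mm10 are named in the submitters' processing notes, and the versions, counting annotation and strand setting are not given in the sources used here. The authors deposited log2 CPM (read counts scaled to library size), from -7.21 to 15.78. Reads of overlapping genes may be shared, and the depth of each library is unknown. Values at or below -5 were treated as the floor. No interval from counting error was given.

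The rows that never left the floor in a depot (9 in brown, 2 in inguinal fat) showed which libraries share a batch: 10 fell in batch 1 and 12 in batch 2. Fitting group and batch gave batch coefficients of at most 0.005, so a batch effect appears to have been removed before the values were deposited.

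From the deposited log2 values, limma 3.58.1 (R 4.3.3) was fitted with 5 group means, 17 residual degrees of freedom and a mean-dependent prior, on rows of at least 1 CPM in 3 libraries, which all 11603 rows met. P-values were adjusted with the Benjamini-Hochberg method over all rows, with 0.05 as threshold. The 95% intervals use the same 17 degrees of freedom. These do not count a batch effect removed beforehand, so p-values and intervals may be slightly too small and too narrow. With batch as a covariate 16 degrees of freedom were left. Then 8325 rows in place of 8453 were called for warming in beige, and 8152 in place of 8274 in brown. The scripts were tested on simulated data. Geometric mean CPM are antilogs of mean log2 values. Gene positions and promoters were taken from RefSeq on GRCm38.p6, the assembly called mm10, with symbols matched exactly: promoters of Ckb and Alpl were present and shown.

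The labels call the libraries biological replicates without naming animals, so p-values measure the spread between these libraries. Beige and brown libraries with the same library number in the descriptions were compared at each temperature. Their deviations from the group means correlated at 0.141 to 0.328 in cold and 0.135 to 0.304 in warm pairs. With the replicate numbers of the titles the correlations were 0.014 to 0.267 in cold and -0.097 to 0.06 in warm pairs. Warm with cold libraries of the same number, by either numbering, gave -0.11 to 0.279. Pairs of unlike number were not compared, so which libraries belong together was not settled. Alternatives were other scalings, CPM added before the log, filters, batches, blocks and leaving out each library.

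The members and lists were chosen with earlier results of these data known. The members were followed in every comparison. From each list, up to 4 called genes with the largest changes were named in the warming comparisons, and those of the other comparisons were not printed. The TATA, CCAAT and GC boxes were added after the sequences were seen. The chromatin samples were not analysed here.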

Additional observations from a re-analysis of the deposited data

Results flagged for a closer look

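Of 35 measured genes of the lists, 25 differed between beige and brown adipocytes in their warming effect, by the limma test of beige minus brown, where 47.2% of all rows did. The values of 18 are given, namely the members and up to 4 of each list with the largest differences. Of the creatine genes, these were Slc6a8 (-2.90, adjusted p = 7.08e-12), Ckb (-2.39, 4.78e-07), Phospho1 (-2.35, 1.14e-09), Slc25a4 (-1.29, 3.86e-07) and Slc25a5 (-1.08, 0.00149). Of the pumps and regulators, they were Atp2a2 (-0.84, 8.3e-06), Atp2a3 (2.11, 1.56e-06), Tmem38a (-1.39, 0.00778), Tmem38b (-1.31, 4.85e-05) and 1810037I17Rik (0.91, 0.00382). Of the release genes, Itpr2 (-2.52, 4.61e-09), Jph1 (-1.21, 0.00133), Itpr1 (-1.09, 2.43e-08) and Jph2 (3.46, 0.0461) differed. Jph2 lost the call with the library-number block (adjusted p = 0.149) and without warm beige 1 or 2, cold beige 2 or 3, warm brown 1, 2 or 3, cold brown 1 or 5 or warm white 3 (0.0519 to 0.105). Of the uptake genes, Micu3 (-1.45, 7.97e-08), Letm1 (-1.05, 7.14e-06), Mcu (-0.82, 5.53e-05) and Stim1 (-0.68, 6.34e-05) differed. In 16 groups of 4 or 5 libraries, no value of Ckb, Slc6a8, Alpl or Atp2a2 lay apart from the others of its group by Dixon's test. Warm beige, with 3 libraries, was not tested, and Alpl read 1.32, -0.29 and 1.37 log2 CPM there.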

How the results depend on the processing

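The direction of 2 results of the 4 genes turned. The beige minus brown difference of Alpl was -0.32 after quantile normalization (adjusted p = 0.554), and Atp2a2 in warm beige against warm white was 0.14 within batch 2 (adjusted p = 0.256). Neither was called, and the cause was not tested. Gamt in cold beige against cold brown also turned. It was called in the main fit, at 1.40 (adjusted p = 3.98e-05), and was -0.22 after quantile normalization. Within batch 1, which holds 1 warm beige library assumed to vary like the other groups, 1 gene in place of 3 was called between warm beige and warm white. Leaving out single libraries gave 3 to 4 genes called for warming in beige, 3 for warming in brown, 3 to 4 for their difference and 2 to 3 for warm beige against warm white. Over all alternatives, 1322 values of the 4 genes kept direction and call, 13 lost a call and 7 gained one. The alternative without a filter kept the same 11603 rows, so it could change nothing. Leaving out a library of a group not compared leaves the difference as it was and can change only its spread. The total of unchanged values therefore overstates how far these results were tested. The replicate block on the title numbers left 4 genes called for warming in beige and 3 in brown. With temperature and library number as block, which pairs beige with brown libraries, the difference was -2.27 for Ckb, -2.98 for Slc6a8, 0.57 for Alpl and -0.85 for Atp2a2, and no call of these genes changed. Setting a common total moved the median of all rows to 0.18 for warming in beige and 0.28 in brown. Unknown depth limits what can be said of Alpl in warm white.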
